A study of Homo sapiens with 9 samples.

Results

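YKL-5-124 was compared with its vehicle, DMSO, in FaDu cells, an established line from a squamous cell carcinoma of the hypopharynx and a model of head and neck squamous cell carcinoma (HNSCC). The comparison took the 6 of 9 libraries of the series that the labels give to these groups, 3 for each, and 16065 of the 58929 genes in the table, those with enough counts to be tested. FaDu cells of genotype Wt, as labelled, were grown in DMEM with serum and received DMSO, YKL-5-124 at 250 nM or samuraciclib at 250 nM, and the last group serves here only to show where YKL-5-124 differs. The treatment lasted 48 h by the treatment protocol and the study's text, and 72 h by the design of the series. All libraries carry the same batch label. Each group had 3 biological replicates of 1 cell line, so the spread measured here is that between cultures of FaDu cells. Polyadenylated RNA was sequenced and read pairs were counted per gene.

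CDK7 is a kinase that works in a pair of places. With cyclin H and MAT1 it forms the CDK-activating kinase, which phosphorylates the cell cycle kinases in their activation loop, and as part of the general transcription factor TFIIH it phosphorylates the tail of RNA polymerase II at promoters. YKL-5-124 binds CDK7 covalently, whereas samuraciclib binds its ATP site reversibly. Cell cycle genes are transcribed under the control of RB and the E2F factors, which the cell cycle kinases regulate, while short-lived transcripts such as the immediate early genes need constant new transcription by RNA polymerase II. The question here is how blocking this kinase alters the transcripts of an HNSCC line.

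Total counts ranged from 18096180 to 28018126 per library with DMSO and from 18264302 to 24613892 with YKL-5-124. All 13 squamous carcinoma markers were tested, and their summed level was 6072 to 6388 CPM (counts relative to the scaled library size, as edgeR computes them) with DMSO and 6248 to 6635 CPM with YKL-5-124. Markers of other cells were low in both groups, at 6.78 to 8.52 against 6.91 to 9.42 CPM for 10 fibroblast markers, 2.63 to 3.50 against 3.76 to 4.33 CPM for 11 immune and blood markers and 30.0 to 32.1 against 25.5 to 28.4 CPM for 6 endothelial markers, nearly all of the last from CDH5. The defining genes PTPRC, CD3D, DCN, LUM and KDR were at 0 in all 6 libraries, PECAM1 was at or below 0.114 CPM and CLDN5 at or below 0.0392 CPM. A transcript of the 7SL RNA, RN7SL2, stood at 59.3 CPM in DMSO 3 and 56.3 CPM in YKL-5-124 2 against 696 to 809.8 CPM in the other 4 libraries. In bulk RNA, fewer cells of a kind and less RNA per cell cannot be told apart, and CPM are relative, so a change in the total RNA of the cells was not measured.

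With YKL-5-124 nearly all genes of the cytosolic ribosome were lower than with DMSO, and most polyadenylated histone transcripts that could be tested were higher. Falls were also counted among genes of translation, DNA replication, mitosis and the immediate early response, and rises among contractile, chaperone and lysosomal genes, each in a part of the list. A gene was called where its adjusted p was below 0.05 (edgeR's quasi-likelihood test with Benjamini-Hochberg adjustment) and its log2 fold change beyond 0.5. By this rule 1911 genes were higher and 1595 lower, that is 11.9% and 9.93% of those tested and 21.8% together, with a median log2 fold change of 0.014. Each list below is read against these shares. The chaperone, lysosomal and spindle lists had 22.9%, 23.2% and 20.0% called, near the 21.8% of all genes. Their calls lay mostly in 1 direction. More than 4-fold changes were few, with 97 genes higher and 35 lower. The libraries of both groups did not overlap for 1858 of the genes called higher and 1557 of those called lower, and over all genes tested, called or not, 56.8% did not overlap. Rises were 54.5% of the calls, but 72.7% when the counts were scaled by library size alone, which moved the median of all genes up by 0.13 on the log2 scale. Directions are therefore relative to the bulk of the genes. Under that scaling several small falls named below stayed negative but inside the fold threshold, at -0.50 to -0.37: ATG7, BECN1, CCNA2, CDK6, CDK17, COL17A1, DNMT1, E2F1, ETV4, GAPDH, HBEGF, HSPD1, KRT14, MCL1, MYH10, PSMA4, TOMM20, TUBB6, TUT4, UHRF1 and VEGFA.

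The direction depended on how strongly a gene was expressed. Of the 2258 genes below 1 CPM, 18.9% were called higher and 5.23% lower, and of the 4584 genes from 1 to 10 CPM 21.4% and 11.1%. The 2390 genes above 100 CPM went the other way, with 2.34% higher and 12.5% lower. Among genes of at least 10 CPM, 504 were higher and 968 lower, and 65 and 162 of them by more than 2-fold. The number of genes with any count was 23617 to 24796 with DMSO and 24818 to 25699 with YKL-5-124, groups that did not overlap. What part the wider range of detected genes has in the rises at low levels was not tested.

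**Figure D1:**
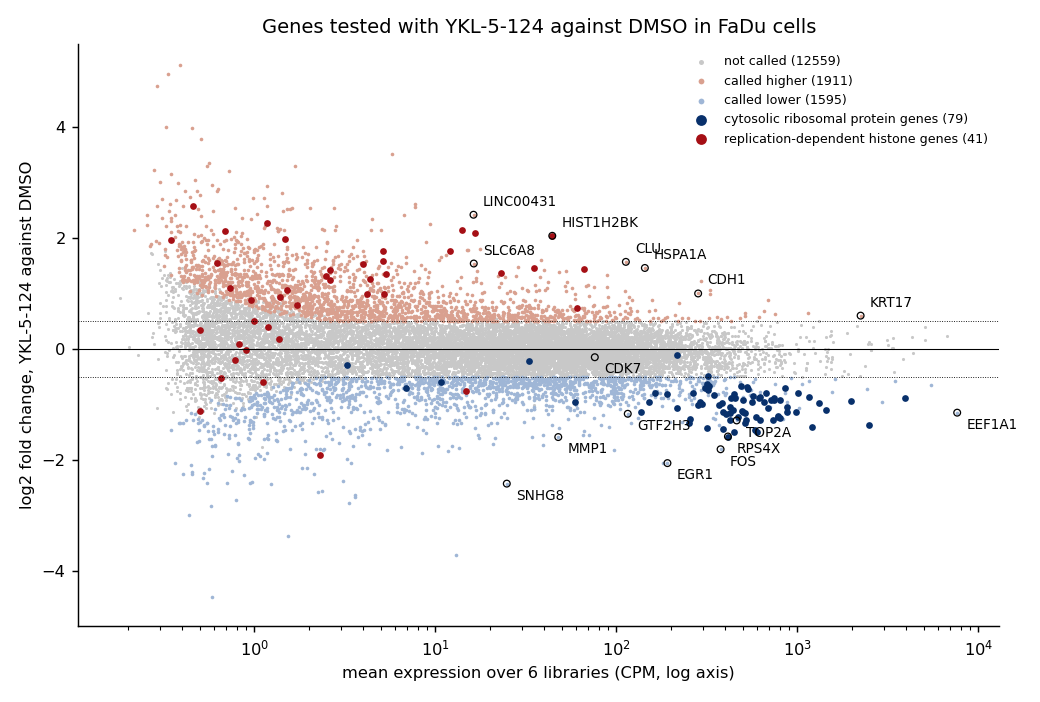
Log2 fold change with YKL-5-124 against DMSO for each of the 16065 genes tested, against the mean expression over the 6 libraries in CPM on a log axis. Called genes, cytosolic ribosomal protein genes and replication-dependent histone genes are coloured. Ribosomal protein genes form a group below 0 at the right, and histone genes lie mostly above 0 at low and middle expression.

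Of the genes of the target complex none but a TFIIH subunit passed the thresholds. CDK7 (ENSG00000134058, chromosome 5, 69234795 to 69277430, GRCh38) measured 76.7, 86.3 and 77.2 CPM in the DMSO libraries and 68.5, 73.6 and 73.5 CPM with YKL-5-124. Its 3 YKL-5-124 libraries lay below the 3 DMSO libraries by a small margin (log2 fold change -0.15 ± 0.058 SE, adjusted p = 0.0352), well inside the fold threshold. Its partners gave -0.26 ± 0.073 for CCNH, the gene of cyclin H, 77.7% of whose span is shared with RASA1, and -0.12 ± 0.061 for MNAT1, the gene of MAT1. Of the 9 genes of the CDK-activating kinase and TFIIH tested, the 1 called was GTF2H3, the p34 core subunit of TFIIH. GTF2H3 (ENSG00000111358, chromosome 12, 123633739 to 123662606) fell from 155, 163 and 162 CPM to 65.8, 75.9 and 71.4 CPM, 2.25-fold, with no overlap (-1.17 ± 0.056, adjusted p = 1.38e-11). The helicase genes ERCC2 and ERCC3 of the same complex, named here after their values were seen, stood at 0.027 ± 0.052 and 0.17 ± 0.051.

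Around RNA polymerase II few genes moved. Of 45 genes of the polymerase and Mediator, 1 was called higher and 4 lower, a share of 11.1%, below the 21.8% of all genes. CDK19, a Mediator kinase, rose (0.64 ± 0.091), while MED22 (-0.68 ± 0.049), MED12 (-0.66 ± 0.079) and MED11 (-0.64 ± 0.15) fell. POLR2A, the largest subunit, measured 387, 356 and 417 CPM with DMSO and 503, 524 and 495 CPM with YKL-5-124, without overlap but inside the threshold (0.39 ± 0.055). Of 32 genes of pausing and elongation, AFF1 of the super elongation complex rose (0.53 ± 0.10), a call that was lost without DMSO 2 (0.44) or YKL-5-124 1 (0.48), and LARP7, which stabilises the 7SK RNA, fell (-0.68 ± 0.095). HEXIM1, the 7SK partner that holds the elongation kinase CDK9 inactive, went from 108, 108 and 106 CPM to 149, 146 and 134 CPM, not enough to be called (0.41 ± 0.048), though it passed under scaling by library size alone (0.54). CDK9 itself gave -0.30 ± 0.055. Of 46 genes of polyadenylation and mRNA decay, 7 fell and none rose, among them the cleavage factor genes CPSF2 (-0.64 ± 0.046) and SYMPK (-0.83 ± 0.051). Splicing and RNA-binding proteins had 11 of 65 lower and 3 higher, a share of 21.5% in both directions together. EWSR1 fell from 523, 539 and 542 CPM to 212, 209 and 199 CPM (-1.37 ± 0.054), and SNRPA1, of the U2 particle, rose from 218, 226 and 216 CPM to 429, 438 and 443 CPM (0.99 ± 0.046), both without overlap.

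Cytosolic ribosomal protein genes were the list with the largest share called. Of 79 tested, 75 fell and none rose (median log2 fold change -0.97, against 0.014 over all genes), and the remaining 4, RPL18, RPS10 and FAU among them, also had negative values. Together they took 6.16%, 6.19% and 5.78% of all counts in the DMSO libraries and 3.11%, 3.18% and 3.39% with YKL-5-124, a difference of -2.82 percentage points. The exact permutation test (two-sided) gave p = 0.1, the smallest that 3 libraries against 3 allow. The 5'-most bases of these messages often begin with a run of C and T, the 5' terminal oligopyrimidine motif known from messages of the translation machinery. So that the start sites can be seen, the 40 bases before and 20 bases from the RefSeq start (GRCh38.p14, gene strand) are printed for 4 of the genes, with the unbroken pyrimidine run that reaches within 3 bases of the start in capitals. RPL3 (chr22:39319604-39319663, minus strand), RPS4X (chrX:72277229-72277288, minus), the stalk protein gene RPLP0 (chr12:120201092-120201151, minus) and EEF1A1 (chr6:73521013-73521072, minus), the gene of elongation factor eEF1A, read as follows.
RPL3: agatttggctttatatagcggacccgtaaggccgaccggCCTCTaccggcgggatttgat
RPS4X: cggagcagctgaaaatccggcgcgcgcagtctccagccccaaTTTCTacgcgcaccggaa
RPLP0: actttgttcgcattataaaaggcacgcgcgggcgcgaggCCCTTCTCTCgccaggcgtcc
EEF1A1: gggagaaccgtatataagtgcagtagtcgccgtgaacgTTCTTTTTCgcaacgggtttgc
These runs are 5, 5, 10 and 9 bases long. RPL3 went from 1729, 1816 and 1708 CPM to 631, 689.8 and 673 CPM. RPLP0 went from 3741, 3648 and 3419 CPM to 1332, 1387 and 1447 CPM, and EEF1A1 from 9829, 10614 and 11155 CPM to 4489.6, 5229.6 and 4501 CPM. In all 3 genes every YKL-5-124 library lay far below every DMSO library, at log2 fold changes of -1.40 ± 0.048, -1.38 ± 0.048 and -1.15 ± 0.062 in that order. RPS4X had the largest fall of the list (617, 669.5 and 572 CPM against 205, 208 and 208 CPM, -1.58 ± 0.055), although its whole span is shared with PIN4 on the table's annotation.

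A RefSeq promoter, matched by symbol, was at hand for 10547 of the 12874 protein-coding genes tested (81.9%). A pyrimidine run of at least 5 bases over the start was found in 53 of 63 ribosomal protein genes (84.1%, median run 11 bases), in 50% of the translation factor genes, in 29.1% of all protein-coding genes tested and in 29.0% of the 27305 promoters of the table. It was also found in 20 of 36 replication-dependent histone genes (55.6%), a list in which most genes tested rose. Among genes called lower the share was 38.4%, and among genes called higher 26.1%. The share of falls rose with the length of the run also when ribosomal protein genes were left out, from 7.98% of 4298 genes with at most 2 bases over 9.00%, 10.7% and 12.8% to 14.2% of 324 genes with 12 or more. The share of rises went from 9.73% to 6.17% over the same classes. A match is a description of these letters, neither a site nor a cause. Without the translation factor genes as well, the share of falls went from 7.94% to 13.4%.

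**Figure D2:**
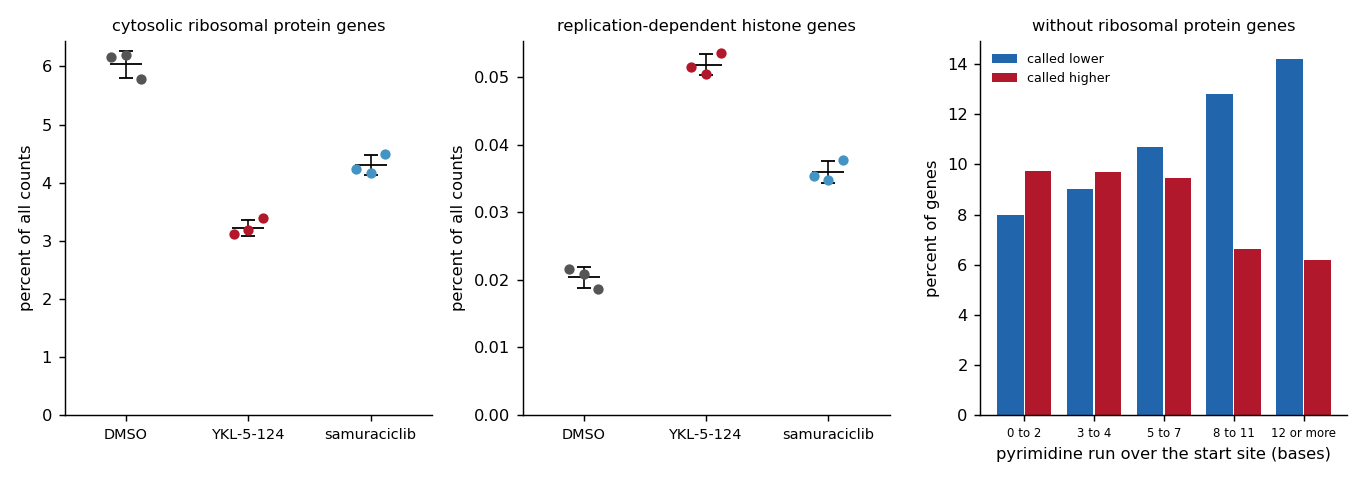
Percent of all counts in cytosolic ribosomal protein genes and in replication-dependent histone genes for each library (points; bars show mean and SD, n = 3), and percent of protein-coding genes called lower and higher by length of the pyrimidine run over the RefSeq start, without ribosomal protein genes. The ribosomal share is at most 3.39% with YKL-5-124 against at least 5.78% with DMSO, the histone share moves up, and falls become more frequent as the run becomes longer.

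Of 56 translation factor genes 23 fell, none rose and 33 were not called (median -0.35). The poly(A)-binding protein gene PABPC4 went from 501, 508 and 483 CPM to 207, 201 and 217 CPM (-1.26 ± 0.049), its homologue PABPC1 from 3644, 3798 and 4161 CPM to 1904, 2083 and 1991 CPM (-0.96 ± 0.051) and the helicase gene EIF4A2 from 327, 347 and 338 CPM to 174, 184 and 178 CPM (-0.92 ± 0.048). None of these 3 genes had overlapping groups. Of 25 snoRNA host genes, whose introns carry the small RNAs that guide rRNA modification, 17 fell and 1 rose (median -0.94). SNHG8 (ENSG00000269893, chromosome 4, 118278709 to 118279823) had the largest fall of those above 10 CPM, from 44.3, 46.8 and 34.5 CPM to 7.08, 7.36 and 8.71 CPM, which is 5.41-fold (-2.43 ± 0.12, adjusted p = 2.61e-11). SNHG5 (-1.82 ± 0.061), SNHG7 (-1.33 ± 0.056) and GAS5 (-1.08 ± 0.051) fell too, and the 1 rise was that of CCDC18-AS1 (0.80 ± 0.17). Ribosome biogenesis and RNA polymerase I had 13 of 68 genes lower and 1 higher (median -0.24), such as the nucleolar genes NPM1 (-0.95 ± 0.051) and GNL3 (-0.99 ± 0.057), the polymerase III subunit POLR3G (-0.87 ± 0.076) and the processome gene UTP6 (-0.75 ± 0.056). The rise of NOP2 (0.67 ± 0.21) rests on 1.22 to 2.65 CPM and was lost without DMSO 2 (0.55) or YKL-5-124 1 (0.59). Paralogs of ribosomal proteins did not move together. RPL22L1 fell (-1.73 ± 0.082) and RPL7L1 fell (-0.82 ± 0.045), while RPL39L rose from 8.07, 9.21 and 6.18 CPM to 12.5, 15 and 14.9 CPM (0.87 ± 0.13).

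Most of the replication-dependent histone genes tested moved upward. The list holds 71 genes, and the others had too few counts to be tested. The filter can keep a gene that has enough counts in just 1 group. Of 41 tested, 29 rose and 2 fell, with a median of 1.24. Their share of all counts was small, 0.0216%, 0.0209% and 0.0186% with DMSO and 0.0515%, 0.0505% and 0.0536% with YKL-5-124, and the groups did not overlap. Most messages of these genes end in a stem-loop instead of a poly(A) tail, so polyadenylated RNA holds only a part of them and their total was not measured. HIST1H2BK, an H2B gene, went from 17.9, 17.0 and 17.1 CPM to 70.5, 70.6 and 72.6 CPM (2.04 ± 0.060). HIST1H2AC, an H2A gene, went from 36.1, 37.2 and 33.8 CPM to 95.2, 98.7 and 96.5 CPM (1.44 ± 0.054), and the linker histone gene HIST1H1C from 19.2, 21.8 and 15.3 CPM to 51.4, 46.3 and 55.9 CPM (1.46 ± 0.10). In each of these the treated libraries lay together above all DMSO libraries. HIST1H2BJ (2.14 ± 0.11), HIST1H4I (2.09 ± 0.10), HIST2H2BE (1.77 ± 0.12) and HIST1H2BD (1.37 ± 0.087) were the other rises of the largest 20 among protein-coding genes of at least 10 CPM. HIST1H2BH fell from 17.6, 20.0 and 18.3 CPM to 11.1, 10.3 and 11.6 CPM (-0.76 ± 0.092), and HIST2H2AC, at 0.676 to 4.52 CPM over the 6 libraries, fell as well (-1.91 ± 0.30). With a filter on a mean of at least 50 counts, which tests fewer genes, 18 histone genes were called higher and 1 lower. Of 11 replacement histone genes, whose messages are polyadenylated, none was called, and of 16 genes of histone transcription and 3' end processing 2 fell, SYMPK and TUT4 (-0.55 ± 0.068), the latter not called without YKL-5-124 3 (-0.48).

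Histone promoters are short and built from a few recurring words. Shown here is the promoter of HIST1H2BK, named H2BC12 in RefSeq, from 250 bases before to 20 bases from the start (GRCh38.p14, chr6:27146839-27147108, minus strand), with CCAAT and TATAAA on either strand in capitals.
HIST1H2BK: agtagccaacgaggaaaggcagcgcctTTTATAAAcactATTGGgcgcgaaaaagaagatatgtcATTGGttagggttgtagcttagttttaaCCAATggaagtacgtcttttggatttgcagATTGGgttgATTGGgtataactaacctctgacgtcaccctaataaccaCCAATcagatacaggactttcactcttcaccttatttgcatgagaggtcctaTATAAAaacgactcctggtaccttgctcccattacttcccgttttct
It holds CCAAT 6 times and TATAAA 3 times, a pair of the latter overlapping on opposite strands. The last TATAAA begins at position -27, where the start is 0. Among 36 histone genes with a promoter, 83.3% had CCAAT and 47.2% had TATAAA between 40 and 20 bases before the start, against 36.6% and 1.72% of all protein-coding genes tested. Over all protein-coding genes the latter word, in that window, was about as frequent among genes called higher (3.16%) as among genes called lower (3.47%), and it stood in 8.74% of the 206 promoters of genes that fell and 5.48% of the 310 of genes that rose more than 2-fold. CCAAT was at 37.6% of genes called higher and 37.7% of genes called lower. Of the 27305 promoters of the table, 35.7% held CCAAT and 12% held TATAAA anywhere in the 300 bases.

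Of 56 genes of origin licensing and the replication fork 18 fell and 38 were not called (median -0.34), and of 26 genes of deoxynucleotide supply 10 fell and 16 were not called (median -0.39). POLA1 (ENSG00000101868, chromosome X, 24693919 to 24996986), the catalytic subunit of the polymerase that starts new strands, went from 63.5, 67.9 and 68.9 CPM to 33.6, 35.6 and 34.7 CPM (-0.95 ± 0.057, adjusted p = 2.43e-10). MCM7 of the replicative helicase went from 511, 513 and 491 CPM to 278, 286 and 298 CPM (-0.81 ± 0.048), and MCM2 of the same ring from 295, 288 and 272 CPM to 157, 158 and 165 CPM (-0.83 ± 0.046). POLD2, a subunit of the lagging strand polymerase, fell as well (-0.77 ± 0.047). For all 4 the groups stood far apart. In nucleotide supply, the ribonucleotide reductase gene RRM2, 81.0% of whose span lies in a readthrough gene model, had 132, 139 and 127 CPM with DMSO and 49.2, 52.9 and 46.9 CPM with YKL-5-124 (-1.41 ± 0.056). IMPDH2 of guanine nucleotide synthesis (-1.03 ± 0.043), CAD of pyrimidine synthesis (-0.80 ± 0.045) and the dUTPase gene DUT (-0.69 ± 0.045) fell with it.

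E2F factors bind words such as TTTCCCGC and TTTGGCGC. Promoters of POLA1 (chrX:24693668-24693937, plus strand) and MCM7 (chr7:100101378-100101647, minus strand) are printed from 250 bases before to 20 bases from the start (RefSeq, GRCh38.p14), with these words, here on the other strand, in capitals. MCM7 was chosen for this after its promoter had been seen, since that of MCM2 holds neither word.
POLA1: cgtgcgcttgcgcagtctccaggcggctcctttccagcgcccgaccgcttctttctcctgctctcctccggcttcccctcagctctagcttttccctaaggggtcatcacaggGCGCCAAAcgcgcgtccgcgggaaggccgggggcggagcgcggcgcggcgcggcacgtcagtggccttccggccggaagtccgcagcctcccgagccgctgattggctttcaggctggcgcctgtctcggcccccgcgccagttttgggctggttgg
MCM7: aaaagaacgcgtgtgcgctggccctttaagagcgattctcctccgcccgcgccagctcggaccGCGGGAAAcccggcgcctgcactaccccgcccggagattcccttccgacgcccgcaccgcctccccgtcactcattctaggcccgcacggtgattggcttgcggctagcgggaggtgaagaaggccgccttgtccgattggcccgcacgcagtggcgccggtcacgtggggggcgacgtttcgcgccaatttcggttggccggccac
The words begin at positions -137 and -187 from the start. On either strand, 18 of 50 promoters of the replication fork list held 1 of them (36%), against 3.71% of all protein-coding genes tested and 2.31% of all promoters of the table. They stood in 4.63% of promoters of genes called lower and 2.34% of those called higher. Among genes that changed more than 2-fold, they stood in 2.91% of the 206 promoters of falls and 0.968% of the 310 of rises. A promoter with neither of these words may still bind an E2F factor.

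Later in the cell cycle the picture was similar. Of 60 genes of the spindle, kinetochore and checkpoint 12 fell and none rose (median -0.34), and of 22 genes of condensin, cohesin and the chromosome scaffold 9 fell and none rose (median -0.37). TOP2A, the topoisomerase of mitotic chromosomes, measured 621, 663 and 682 CPM with DMSO and 267, 290.4 and 246 CPM with YKL-5-124 (-1.29 ± 0.059). NCAPH of condensin measured 94.9, 100.2 and 98.1 CPM and then 36.6, 34.5 and 34.0 CPM (-1.48 ± 0.055). Both had every treated library below every control. NCAPG of the same complex (-0.93 ± 0.072), the cohesin gene SMC1A (-0.89 ± 0.053), the mitotic kinesin gene KIF20A (-0.87 ± 0.055), CDC20, the activator of the anaphase-promoting complex (-0.83 ± 0.050), and the kinetochore genes CENPK (-0.81 ± 0.060) and ZWINT (-0.81 ± 0.045) followed. The regulators themselves moved less. Of 20 cell cycle CDKs and cyclins 3 fell, PKMYT1 (-0.67 ± 0.061), CDK6 (-0.53 ± 0.055) and CCNA2 (-0.51 ± 0.050), and the last 2 lost their call when single libraries were left out, with values down to -0.48 for both. CDK1 had 197, 205 and 205 CPM with DMSO and 139, 154 and 136 CPM with YKL-5-124, at the edge of the threshold (-0.50 ± 0.049). Cyclin D1, CCND1, did not separate the groups at 1439, 1494 and 1534 CPM against 1439, 1491 and 1381 CPM (-0.051 ± 0.048). RB1 gave -0.16 ± 0.051, whereas E2F1 (-0.57 ± 0.049), E2F2 (-0.78 ± 0.10), RBL1 (-0.72 ± 0.057) and MYBL2 (-0.90 ± 0.048), all in the list of the RB and E2F family, fell. LIN37 of that list was the 1 rise, at 0.639 to 1.8 CPM, and lost its call without DMSO 3 or YKL-5-124 3.

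CDK inhibitors were the cell cycle list with rises only. Of 8 tested 4 rose and none fell (median 0.38). By glmTreat, which tests against the fold threshold itself, 1 was called higher. The median was 0.18 where the mean count had to reach 50. CDKN1A, which encodes p21, went from 35.7, 37.9 and 40 CPM to 57.4, 53.9 and 63.7 CPM, without overlap (0.62 ± 0.071). CDKN2C, the gene of p18, rose from 19.6, 22.3 and 18.6 CPM to 31.3, 30.5 and 31.5 CPM (0.63 ± 0.077), and CDKN2B, the gene of p15, whose span lies inside that of CDKN2B-AS1, from 5.55, 6.07 and 6.52 CPM to 9.94, 12 and 11.7 CPM (0.89 ± 0.13). CDKN1C (0.71 ± 0.25), at 1.20 to 3.50 CPM, was not called without YKL-5-124 3 (0.44) or either of DMSO 1 (0.58) and DMSO 2 (0.73). Of 22 further CDKs and partners CDK18 (0.87 ± 0.099) and CCNG2 (0.84 ± 0.10) were among 4 rises, and CDK14 (-0.90 ± 0.17) and CDK17 (-0.56 ± 0.065) were the 2 falls.

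In DNA repair, homologous recombination and the Fanconi anemia pathway had 9 of 43 genes lower and 1 higher (median -0.24). ATM, the kinase that signals double-strand breaks, fell from 113, 102 and 100.2 CPM to 62.8, 55.3 and 54.8 CPM (-0.87 ± 0.063). It shares 41.4% of its span with other genes. FANCD2 fell from 126, 131 and 133 CPM to 77.5, 85.6 and 75.8 CPM (-0.71 ± 0.052), and the nuclease gene MUS81 rose from 70.9, 68.3 and 70.5 CPM to 104, 99.1 and 112 CPM (0.59 ± 0.052). No library crossed over in these genes. Excision, mismatch and end-joining repair had 7 of 50 genes lower and none higher (median -0.26), among them DDB2, a damage sensor of nucleotide excision repair (-1.02 ± 0.065), and the kinase gene PRKDC (-0.64 ± 0.052). BRCA1 stood at -0.44 ± 0.052. The share called in either direction was near the 21.8% of all genes for homologous recombination and the Fanconi anemia pathway. For excision, mismatch and end-joining repair it was below that share. Falls alone, at 9.93% of all genes, were more frequent in both repair lists.

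Of 30 AP-1 and immediate early factors 11 fell, 1 rose and 18 were not called (median -0.27). EGR1 measured 282, 273 and 373 CPM with DMSO and 59.8, 69.5 and 92.8 CPM with YKL-5-124, FOS 503, 549.5 and 707 CPM and then 146, 160.0 and 196 CPM. In both genes DMSO 3 was the highest control and YKL-5-124 3 the highest treated library, and the groups remained apart (-2.06 ± 0.13 and -1.81 ± 0.11). JUN, the partner of FOS in AP-1, fell from 311, 314 and 361 CPM to 117, 125 and 155 CPM (-1.32 ± 0.086), and IER3 from 122, 115 and 127 CPM to 69.6, 73.6 and 75.2 CPM (-0.73 ± 0.055). The 1 call upward, ARC, rests on 0.229 to 1.18 CPM and was lost in 3 of 6 fits that left out a library. The EGR1 promoter is a textbook target of serum response factor, and it is printed from 250 bases before to 20 bases from the start (RefSeq, GRCh38.p14, chr5:138465229-138465498, plus strand) with its CArG boxes, the word of that factor, in capitals.
EGR1: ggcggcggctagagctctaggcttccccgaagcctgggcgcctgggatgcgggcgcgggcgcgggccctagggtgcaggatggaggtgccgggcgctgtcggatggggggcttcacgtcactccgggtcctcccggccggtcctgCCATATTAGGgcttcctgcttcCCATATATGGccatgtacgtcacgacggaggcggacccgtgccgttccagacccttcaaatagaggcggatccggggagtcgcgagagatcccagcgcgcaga
Its 2 boxes begin at positions -105 and -83. A CArG box was present in 1.13% of promoters of all protein-coding genes tested and 1.29% of the whole table, in 3.40% of the genes that fell and 4.19% of those that rose more than 2-fold. The AP-1 word TGANTCA, where N is any base, was present in 4.48% of promoters of all protein-coding genes tested, 5.10% of genes called higher, 5.41% of genes called lower and 7.76% of the whole table. The CREB word TGACGTCA was present in 3.33%, 3.57%, 3.67% and 1.98% of these in the same order.

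Feedback genes of the ERK pathway had 6 of 24 lower and 1 higher. The phosphatase genes DUSP1 (-1.13 ± 0.066) and DUSP6 (-0.76 ± 0.069) and the ETS factor genes ETV1 (-0.75 ± 0.10) and ETV4 (-0.63 ± 0.074), the latter inside the span of DHX8, fell. DUSP8, at 0.373 to 1.29 CPM, rose (1.17 ± 0.34), a call lost without YKL-5-124 2 (0.92) or without the 3 libraries low in 7SL RNA (0.86). Of 27 cytokine and chemokine genes 8 fell and 3 rose (median -0.22). IL24 fell from 31.6, 32.1 and 32.4 CPM to 9.26, 10.2 and 9.68 CPM (-1.72 ± 0.081) and CXCL8, the neutrophil chemokine, from 104, 105 and 110.4 CPM to 44.2, 48.0 and 41.6 CPM (-1.25 ± 0.070). LIF went from 184, 188 and 185 CPM to 109, 94.7 and 100.3 CPM (-0.88 ± 0.052) and VEGFA from 399, 393 and 398 CPM to 254, 264 and 267 CPM (-0.60 ± 0.045). These 4 fell in every treated library. PDGFB, a growth factor for mesenchymal cells, rose from 45.2, 47.0 and 50.2 CPM to 104, 94.3 and 111 CPM (1.11 ± 0.062), and the interleukin 1 antagonist gene IL1RN from 11.4, 12.2 and 11.9 CPM to 21.0, 23.1 and 19.7 CPM (0.84 ± 0.097). Of 23 genes of NF-kB factors and feedback just TRAF1 was called (0.68 ± 0.22, at 1.32 to 2.5 CPM, lost without DMSO 3 at 0.57). Among 46 interferon-stimulated genes 8 fell and 2 rose. IFI44 fell from 52.9, 56.1 and 57.5 CPM to 26.8, 25.6 and 25.2 CPM (-1.10 ± 0.066) and IFITM3 from 196, 186 and 214 CPM to 104, 114 and 117 CPM (-0.83 ± 0.061). Antigen presentation and immune ligands had 5 rises and no fall among 27, such as CD274, the gene of PD-L1 (0.60 ± 0.10), NLRC5, a regulator of MHC class I (0.52 ± 0.056), and the stress ligand gene ULBP1 (1.23 ± 0.16). NLRC5 lost its call without DMSO 3 (0.48) or YKL-5-124 1 (0.50).

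The list of EGFR and FGFR families, other growth factor receptors, ligands and regulators had 6 of 23 genes higher and 2 lower. The rises were those of the receptor genes FGFR1, FGFR2, FGFR3 and INSR, the ligand gene BTC and the regulator gene LRIG3, and the falls those of the ligand genes NRG2 and HBEGF. FGFR2 went from 24.0, 26.6 and 27.7 CPM to 44.5, 43.8 and 42.3 CPM (0.73 ± 0.064) and FGFR3 from 25.7, 22.4 and 24.0 CPM to 43.6, 37.4 and 44.0 CPM (0.79 ± 0.077). FGFR1 rose from 8.93, 8.79 and 8.59 CPM to 18.4, 16.7 and 17.2 CPM (0.99 ± 0.092). Each had separate groups, while EGFR itself stayed inside the threshold (-0.20 ± 0.049). The ligand gene HBEGF fell (-0.61 ± 0.084). In the Notch pathway 5 of 30 genes rose and 2, HES1 and MFNG, fell. The ligand gene JAG1 rose from 32.9, 37.4 and 38.1 CPM to 59.7, 59.1 and 59.5 CPM (0.71 ± 0.060). HES1, a main target of the pathway, fell from 124, 120.2 and 127 CPM to 60.4, 57.2 and 63.9 CPM (-1.03 ± 0.053), whereas HES6, a family member that opposes HES1, rose from 4.86, 7.19 and 4.41 CPM to 17.6, 14.8 and 20.3 CPM (1.69 ± 0.19). In the TGF-beta pathway 5 of 37 rose and 6 fell: TGFB2 rose (1.19 ± 0.11) and the BMP target ID1 fell (-0.86 ± 0.059). The latent TGF-beta binding proteins split, with LTBP1 higher (1.36 ± 0.15) and LTBP2 lower (-0.89 ± 0.068). Of 22 genes of IGF binding and the insulin pathway 6 rose and none fell, among them IGFBP3 (1.10 ± 0.066), IGFBP7 (1.03 ± 0.088), SESN3 (1.13 ± 0.11) and the adaptor gene IRS2 (0.66 ± 0.087).

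Of 43 genes of the actin cytoskeleton and contractility 12 rose, 4 fell and 27 were not called (median 0.30). The myosin light chain gene MYL9 went from 20.3, 21.9 and 22.8 CPM to 55.7, 55.1 and 63.5 CPM (1.42 ± 0.077), MYL12A from 208, 225 and 205 CPM to 438, 435 and 457 CPM (1.06 ± 0.050) and the actin organiser PALLD from 48.0, 49.6 and 53.1 CPM to 123, 128 and 131 CPM (1.34 ± 0.051). In the cross-linker gene ACTN1 the libraries moved from 874, 890.2 and 914 CPM to 1390.4, 1364 and 1437 CPM (0.65 ± 0.045). These 4 gained in every library, while ACTG1, a cytoplasmic actin gene, moved down from 6653, 6635 and 6910.3 CPM to 4140.1, 4262 and 4376 CPM (-0.66 ± 0.040). ACTG1 shares 70.6% of its span with another gene model. MYH10, a non-muscle myosin heavy chain, fell as well (-0.57 ± 0.050). YAP targets were split, with 2 of 29 higher and 2 lower.

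Junctions and epithelial adhesion had 7 of 40 genes higher and 2 lower. E-cadherin, CDH1 (ENSG00000039068, chromosome 16, 68737225 to 68835548), measured 185, 183 and 199 CPM with DMSO and 371, 385 and 375 CPM with YKL-5-124, a 1.99-fold rise (1.00 ± 0.047, adjusted p = 1.28e-11). The tight junction gene CLDN4 rose (0.67 ± 0.057), and the desmosomal genes DSG2 (0.51 ± 0.054) and PKP2 (0.51 ± 0.048) passed narrowly and lost the call without DMSO 1 (0.48 and 0.49), DMSO 2 (0.48 and 0.49) or YKL-5-124 2 (0.46 and 0.48). Keratins and the cornified envelope were evenly split, with 7 of 34 higher and 7 lower. KRT17 rose from 1744, 1786 and 1804 CPM to 2625, 2636 and 2817 CPM (0.60 ± 0.045) and the envelope protein gene PPL from 390.1, 402 and 407 CPM to 646, 600.0 and 621 CPM (0.64 ± 0.049). KRT15 fell from 83.0, 87.1 and 89.1 CPM to 51.1, 47.7 and 43.9 CPM (-0.86 ± 0.064), and the kallikrein genes KLK10 (-1.43 ± 0.094), KLK6 (-1.06 ± 0.074) and KLK5 (-0.76 ± 0.050) fell too. Among basal keratins KRT5 gave -0.48 ± 0.047 and KRT14 -0.50 ± 0.090, a call lost without DMSO 2 (-0.47) or YKL-5-124 3 (-0.42). Of 26 squamous lineage factors 2 fell, SOX9 (-0.71 ± 0.074) and ID1, and TP63 stood at 0.20 ± 0.047.

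Matrix genes moved both ways. Matrix metalloproteinases and their inhibitors had 6 of 29 higher and 8 lower. The interstitial collagenase gene MMP1 fell from 74.9, 73.2 and 66.9 CPM to 24.7, 24.4 and 22.3 CPM (-1.59 ± 0.066), with MMP13 (-1.33 ± 0.11) and ADAM19 (-1.77 ± 0.16). The membrane-bound MMP15 rose from 31.2, 30.7 and 34.4 CPM to 72.8, 66.9 and 83.7 CPM (1.21 ± 0.077), and TIMP3, an inhibitor of these enzymes, from 1.26, 1.97 and 1.70 CPM to 4.84, 4.5 and 5.69 CPM (1.59 ± 0.19). Among 41 collagens, laminins and integrins 5 rose and 8 fell. COL4A1 of basement membranes rose (1.16 ± 0.057), as did COL8A1 (1.01 ± 0.070) and ITGAV (0.75 ± 0.054). Outside the list, the collagen gene COL27A1 fell from 109, 101 and 108 CPM to 38.9, 36 and 32.7 CPM (-1.56 ± 0.068), and in it COL17A1 (-0.58 ± 0.046) and COL12A1 (-0.66 ± 0.046) fell. Genes of mesenchymal transition numbered 5 higher and 5 lower of 25: FN1 (0.69 ± 0.052) and THBS1 (0.54 ± 0.050) rose, and SNAI2 (-0.86 ± 0.068) and CD44 (-0.81 ± 0.047) fell.

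Among the stress responses, chaperone genes had 11 of 48 higher and none lower, although the median stayed at 0.045. CLU, the extracellular chaperone clusterin, went from 52.9, 56.0 and 61.1 CPM to 164, 164 and 177 CPM (1.57 ± 0.059), HSPA1A, the inducible HSP70, from 73.3, 66.6 and 89.4 CPM to 189, 204 and 241 CPM (1.46 ± 0.095) and HSPA2 from 25.1, 24.1 and 30.2 CPM to 69.3, 67.6 and 71.5 CPM (1.38 ± 0.076). The co-chaperone genes BAG3 (0.88 ± 0.056) and DNAJB2 (1.06 ± 0.066) rose as well, in each library. Mitochondrial chaperones and proteases had 5 of 24 lower, none higher and 19 not called. Their share of 20.8% compares with 21.8% of all genes called in either direction and 9.93% called lower. The calls included HSPD1, the mitochondrial HSP60 (-0.58 ± 0.048), TOMM20 of the import pore (-0.62 ± 0.047) and the processing peptidase gene PMPCB (-0.72 ± 0.061). The proteasome had 3 of 37 lower, PSMC5 (-0.86 ± 0.054), PSMD7 (-0.69 ± 0.057) and PSMA4 (-0.55 ± 0.054), which lost its call without DMSO 2 (-0.50). Lysosomal and autophagy genes had 11 of 56 higher and 2 lower (median 0.26). LGMN, a lysosomal protease, rose from 156, 165 and 158 CPM to 284, 284 and 281 CPM (0.82 ± 0.043), NEU1, the sialidase, from 92.9, 88.1 and 87.9 CPM to 147, 145 and 155 CPM (0.73 ± 0.048), and ARSD from 6.75, 6.55 and 6.82 CPM to 23.7, 22.1 and 23.5 CPM (1.78 ± 0.089). The 2 falls were genes of autophagy initiation and lipidation, BECN1 (-0.60 ± 0.057), which shares 44.9% of its span with other genes, and ATG7 (-0.59 ± 0.065). BCL2 family and death receptor genes had 2 of 33 higher and 3 lower. The death effector gene PMAIP1 (-0.86 ± 0.078) and BCL2L2, a survival factor, fell (-0.94 ± 0.052), and MCL1 (-0.51 ± 0.051) lost its call without DMSO 3 (-0.46), YKL-5-124 1 (-0.48) or YKL-5-124 2 (-0.50). Of the span of BCL2L2, 69.3% is shared with other gene models, a readthrough model among them.

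Metabolic lists changed in part. The ATF4 response and tRNA synthetases had 8 of 38 lower and none higher (median -0.22). ATF4, the factor itself, fell from 701, 705 and 689 CPM to 382, 390.3 and 401 CPM (-0.84 ± 0.045), DDIT4, an inhibitor of mTORC1 signalling, from 85.1, 82.9 and 85.6 CPM to 36, 37.7 and 37.6 CPM (-1.19 ± 0.052), and the synthetase genes QARS (-0.87 ± 0.055) and VARS (-0.65 ± 0.045) with them. Cholesterol and fatty acid synthesis had 4 of 40 lower and 1 higher. The sterol sensor gene INSIG1 fell (-0.97 ± 0.046), while TM7SF2, a sterol reductase, rose (0.93 ± 0.13). Transporters of amino acids and nutrients had 3 of 30 higher and 2 lower. The creatine transporter gene SLC6A8 (ENSG00000130821, chromosome X, 153688099 to 153696593) rose from 7.96, 8.36 and 8.59 CPM to 25, 24.6 and 23.3 CPM, 2.92-fold (1.54 ± 0.098, adjusted p = 4.49e-10). The glucose transporter gene SLC2A3 fell from 4.01, 3.83 and 3.84 CPM to 1.46, 1.33 and 1.31 CPM (-1.51 ± 0.17). Hypoxia and glycolysis had 4 of 40 higher and 5 lower, with EGLN3, an oxygen-sensing hydroxylase (1.29 ± 0.11), among the rises and GAPDH (-0.58 ± 0.042) and STC1 (-1.6 ± 0.11) among the falls. Among NRF2 and antioxidant genes 6 of 44 rose and 5 fell. GCLC, of glutathione synthesis (0.68 ± 0.044), and the thioredoxin reductase gene TXNRD1 (0.63 ± 0.048) rose. The metallothionein gene MT2A fell from 1410.4, 1343 and 1369 CPM to 639, 635 and 695 CPM (-1.07 ± 0.051). Mitochondrial ribosomal protein genes, whose products build a separate ribosome, had 12 of 78 lower and none higher (median -0.13), a smaller shift than in the cytosolic list. Oxidative phosphorylation subunits from the nucleus had 5 of 75 lower, UQCRB the clearest (-0.72 ± 0.047), and 2 higher, NDUFA3 (0.59 ± 0.086) and NDUFB10 (0.57 ± 0.063), neither called without YKL-5-124 3 (0.48 and 0.50). None of the 13 mitochondrially encoded messages was called. The share of counts of all genes on the mitochondrial chromosome, not of these messages alone, overlapped between the groups.

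**Figure D3:**
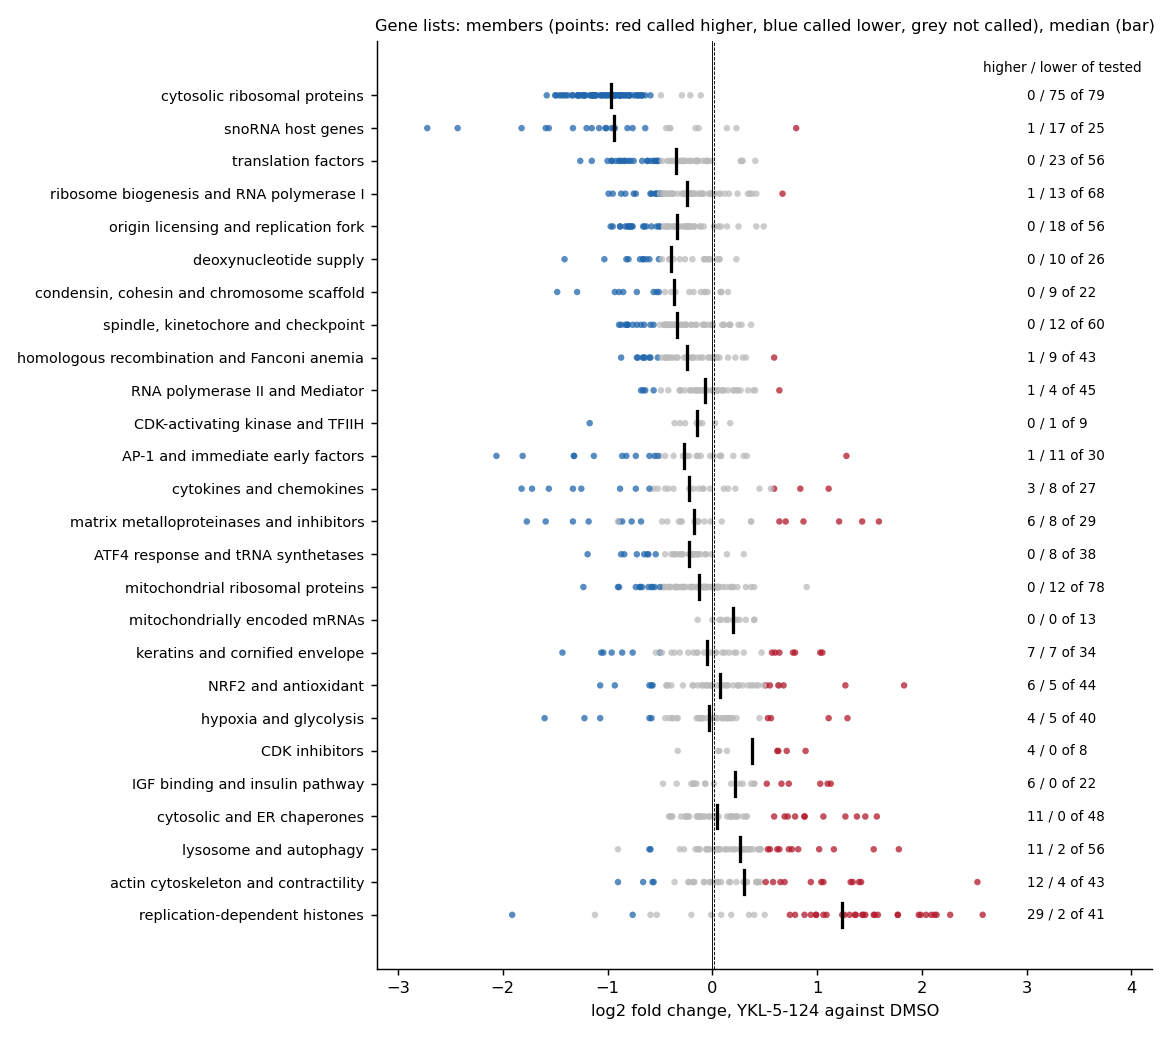
Log2 fold change with YKL-5-124 against DMSO of the tested members of 26 gene lists, with the median of each list (bar), the median of all genes (dashed line) and the number called higher and lower at the right. Cytosolic ribosomal protein genes (0 higher and 75 lower of 79) and replication-dependent histones (29 higher and 2 lower of 41) lie at the opposite ends.

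The remaining lists moved little or in both directions. The MYC network had 2 of 12 genes higher, MXD4 (0.89 ± 0.11) and MYCL (0.89 ± 0.28), the latter lost without DMSO 3 (0.65) or YKL-5-124 1 (0.63), and MYC itself gave 345, 340.4 and 372 CPM against 269, 277 and 304 CPM (-0.32 ± 0.053). Chromatin writers, erasers and remodelers had 2 of 79 higher and 8 lower. The helicase gene HELLS (-0.73 ± 0.047), DNMT1, the maintenance DNA methyltransferase (-0.58 ± 0.046), its partner UHRF1 (-0.53 ± 0.056) and HDAC3 (-0.67 ± 0.054) fell, and HDAC5 rose (0.61 ± 0.094). UHRF1 lost its call without DMSO 1 (-0.50). Of 43 cilium and axoneme genes 5 rose and 9 fell, with CFAP45 of motile cilia higher (1.93 ± 0.11) and CEP290 (-1.02 ± 0.092) and DYNC2H1 (-1.01 ± 0.051), genes of the transition zone and of transport, lower. Tubulins and microtubule proteins had 2 of 23 higher, both below 2 CPM, and 3 lower, TUBB6 among them (-0.61 ± 0.056).

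The 20 largest rises among protein-coding genes of at least 10 CPM also held NANOS1, an RNA-binding repressor (1.81 ± 0.12), CCDC92 (1.78 ± 0.10), PHYH, a peroxisomal hydroxylase (1.61 ± 0.11), JPH2 (1.6 ± 0.085), IDH2, the mitochondrial isocitrate dehydrogenase (1.47 ± 0.068), and the actin-severing protein gene GSN (1.40 ± 0.11). IDH2 measured 14.7, 15.7 and 15 CPM with DMSO and 40.6, 41.7 and 43.3 CPM with YKL-5-124, PHYH 5.32, 4.90 and 5.16 CPM and then 14.8, 17.2 and 15 CPM. The 20 largest falls held 5 ribosomal protein genes, RPS4X, RPS3A (-1.50 ± 0.057), RPL27A (-1.49 ± 0.064), RPS3 (-1.46 ± 0.064) and RPS29 (-1.44 ± 0.12), of which RPL27A shares 67.5% of its span with other genes. The chloride channel gene ANO1 was another, at 95.6, 103 and 95.1 CPM with DMSO and 34.1, 34.2 and 31.2 CPM with YKL-5-124 (-1.56 ± 0.062). SHISAL1 (-1.78 ± 0.14), the ubiquitin ligase gene LRSAM1 (-1.61 ± 0.081) and the proteoglycan gene SPOCK1 (-1.55 ± 0.090) fell with it. BOLA2B, formally the largest of these falls (-3.72 ± 0.93), rests on DMSO 2 at 67.7 CPM against 2.40 and 2.41 CPM in the other controls, and gave -0.43 (adjusted p = 0.227) without that library. IL1RL1 (-1.85 ± 0.11) shares 99.9% of its span with IL18R1 and C6orf48 (-1.59 ± 0.070) hosts snoRNAs.

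In terms of counts, the 10 genes that lost most CPM were EEF1A1, RPS2, RPLP0, ACTG1, PABPC1, GAPDH, RPSA, PPIA, RPL3 and RPL7A. They took 4.12%, 4.18% and 4.15% of all counts with DMSO and 2.30%, 2.43% and 2.39% with YKL-5-124. Among the genes that gained most CPM were KRT17, ACTN1, TXNRD1, TPM4, LMNA, MYL12A, ANKRD10, PPL and SNRPA1. LMNA, the gene of lamins A and C, moved from 489, 492 and 494 CPM to 705, 725 and 769 CPM (0.58 ± 0.049), and all its treated libraries exceeded all controls.

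**Figure D4:**
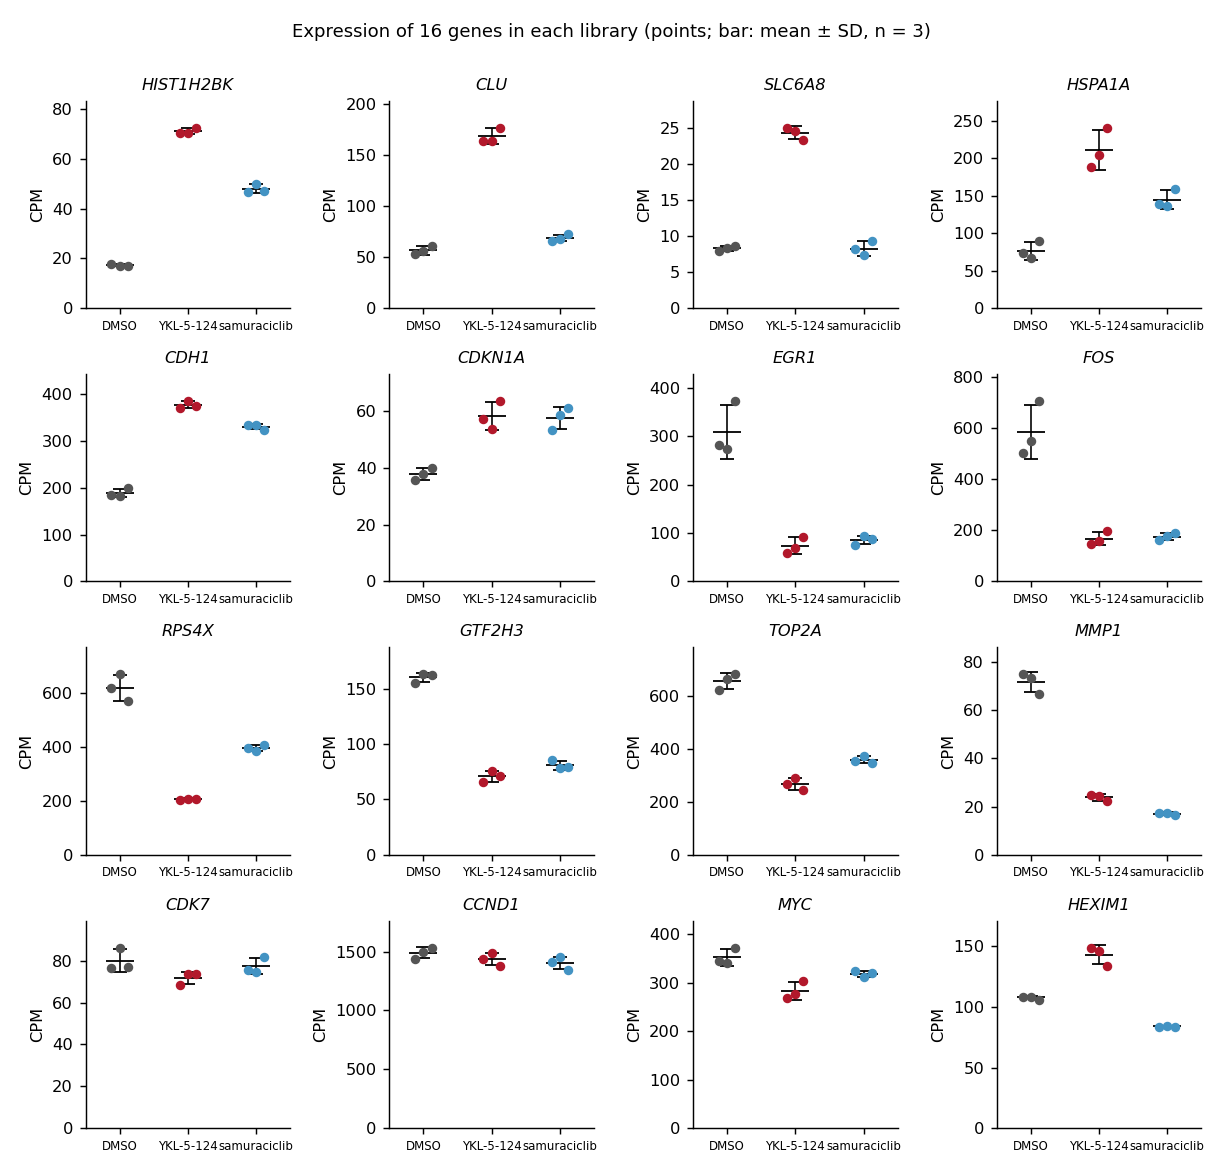
Expression in CPM of 16 genes in each library (points), with mean and SD of the 3 libraries of a group. The first 6 genes are higher with YKL-5-124 than with DMSO, the next 6 lower, and the last row holds CDK7, CCND1, MYC and HEXIM1, none of which passed the thresholds.

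Classes of transcript differed. Of 12874 protein-coding genes tested 9.73% were higher and 9.92% lower, with a median of -0.014. Antisense genes were higher in 28.5% of 917 cases and lower in 4.69% (median 0.42), and long intergenic RNAs in 21.5% and 8.85% of 655. Processed pseudogenes went the other way, with 8.62% of 464 higher and 23.7% lower (median -0.18). Since the strand setting of the counting is not given, reads of an antisense gene and its partner may not be told apart, and the reads of a processed pseudogene may come from its parent gene. These classes were not matched for expression. Among protein-coding genes, 17.7% were higher and 6.91% lower below 1 CPM, and 20.3% and 10.9% from 1 to 10 CPM. Of the 2258 genes tested below 1 CPM, 926 were protein-coding, and of the 6833 from 10 to 100 CPM, 6565. Whether the classes differ at like expression was not tested. The non-coding gene with the largest rise of at least 10 CPM was LINC00431 (ENSG00000225760, chromosome 13, 110965704 to 110990579), from 5.09, 5.06 and 5.12 CPM to 24.6, 27.3 and 30.2 CPM, 5.37-fold (2.42 ± 0.10, adjusted p = 2.53e-12). AL662795.2 (1.65 ± 0.11), which lies in HLA-L, the divergent transcript NUP50-DT (1.09 ± 0.084) and ANKRD10-IT1 (1.04 ± 0.088), inside ANKRD10, rose too. The falls were led by SNHG8 and LRRC75A-AS1, a snoRNA host that shares 94.3% of its span with other genes and went from 276, 283 and 311 CPM to 64.3, 77.0 and 68.6 CPM (-2.05 ± 0.068). DLEU2 (-1.76 ± 0.10) and the pseudogene ZSCAN12P1 (-1.75 ± 0.13) followed.

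Falls differed in frequency with the span of the gene, though not in step with it. Among protein-coding genes of at least 10 CPM, 15.4% of the 625 with a span of up to 5 kb were called lower, 12% of those from 5 to 20 kb, 9.95% of those from 20 to 50 kb, 6.68% of those from 50 to 100 kb and 8.03% of the 1668 over 100 kb. Without ribosomal protein and histone genes the first of these shares was 10.9%, below the 12% from 5 to 20 kb, a class from which these genes were not left out. Rises lay between 4.55% and 6.40% in every class. The median expression of the classes was 44.6 to 55.1 CPM. Among protein-coding genes of any level tested, single-exon genes outside the histones were higher in 51 of 293 cases (17.4%) and lower in 23 (7.85%). Genes with several exons were higher in 9.43% and lower in 9.97% of cases. These groups were not matched for expression.

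Samuraciclib at the same dose was set beside these values to see where the effect of YKL-5-124 differs. Both inhibitors were compared with the same 3 DMSO libraries, so their fold changes share an error, and the difference was tested between the YKL-5-124 and samuraciclib libraries, which is 1 pair of compounds at 1 dose. In that test 717 genes were higher with YKL-5-124 and 395 lower, 6.92% of those tested. The ribosomal protein genes were lower with YKL-5-124 in 39 of 79 cases and higher in none, with a median difference of -0.50, and their share of counts was 4.24%, 4.17% and 4.5% with samuraciclib against 3.11% to 3.39% with YKL-5-124. EIF4A2 stood at 325, 349 and 327 CPM with samuraciclib, as in the DMSO libraries, and at 174 to 184 CPM with YKL-5-124 (difference -0.90 ± 0.048 on the log2 scale, adjusted p = 2.23e-09). RPL13 (-0.90 ± 0.071), its pseudogene RPL13P12 (-0.92 ± 0.10), RPL27A (-0.98 ± 0.063) and RPS4X (-0.94 ± 0.055) were among the 8 genes most below samuraciclib. Of 41 histone genes 10 were higher with YKL-5-124 than with samuraciclib and none lower (median difference 0.36). HIST1H2BK lay at 46.7, 50 and 47.2 CPM with samuraciclib, between the other groups (difference 0.57 ± 0.054).

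Some genes that were called with YKL-5-124 had levels near those of DMSO with samuraciclib. SLC6A8 had 8.14, 7.29 and 9.30 CPM with samuraciclib, a difference of 1.56 ± 0.098 (adjusted p = 8.29e-09). CLU had 66.1, 68.2 and 72.5 CPM (1.29 ± 0.058), and TLCD1, 57.2% of whose span is shared with RPL23A and NEK8, had 11.3, 9.98 and 8.79 CPM (1.22 ± 0.095). In these 3 genes the YKL-5-124 libraries stood above all others. LIF was lower with YKL-5-124 than with samuraciclib (-0.85 ± 0.052), and so were KCNQ5, a potassium channel gene (-0.96 ± 0.080), and SHISAL1 (-1.37 ± 0.14). HEXIM1 moved to opposite sides of DMSO, with 83.6, 84.6 and 83.7 CPM under samuraciclib (difference 0.77 ± 0.048, adjusted p = 8.29e-09), and CYSRT1 did so too (1.04 ± 0.099), although its rise with YKL-5-124 was not called without YKL-5-124 3 (0.40). Lysosomal genes were higher with YKL-5-124 than with samuraciclib in 7 of 56 cases and lower in 1, NEU1 among the former (0.51 ± 0.048), though not without samuraciclib 2 (0.49) or YKL-5-124 3 (0.48). The Notch modifier gene MFNG, called lower than DMSO with YKL-5-124, lay further below with samuraciclib (difference 0.83 ± 0.091). MYL9 was lower with YKL-5-124 than with samuraciclib (-0.57 ± 0.069), while MMP1 differed by less than the threshold (0.48 ± 0.073). Some genes showed no called difference, with estimates (± 1 SE) of 0.0010 ± 0.045 for KRT17, 0.013 ± 0.068 for CDKN1A, -0.072 ± 0.11 for FOS and 0.057 ± 0.048 for MCM7. An SE does not bound the difference, so equal levels are not shown. GTF2H3 differed by -0.19 ± 0.057, inside the threshold. Of 56 replication fork genes 1 was higher with YKL-5-124 than with samuraciclib and none lower, of 60 spindle genes none was called, and of 13 mitochondrially encoded messages none was called between the inhibitors although 7 were called higher with samuraciclib against DMSO.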

How the data were processed

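Per the labels and the study's methods, the authors isolated poly(A) RNA from 3 cultures per group, aligned read pairs to GRCh38 with HISAT2 and made the deposited count table with featureCounts 2.0.6, as whole counts per gene without normalization. The annotation release and the strand setting are not given in the sources used here. From these counts, TMM scaling and 1 quasi-likelihood fit of edgeR 4.0.16 (R 4.3.3) over all 9 libraries gave log2 fold changes and Benjamini-Hochberg adjusted p over 16065 genes kept by filterByExpr. The SE was derived from the fold change and the F statistic. p-values measure the spread between cultures of 1 line. The scripts were tested on simulated data. Alternatives used DESeq2 1.42.0, other scalings and filters, and left out single libraries. Gene positions come from the deposited table and promoters from RefSeq (GRCh38.p14), matched by symbol. Spans shared with other genes are given for some genes, not for all. Members and gene lists were chosen with earlier results of these data known. Named genes were the 20 largest rises and falls among called protein-coding genes of at least 10 CPM whose groups did not overlap, the 10 called genes with the largest gain and loss of CPM, in each list up to 4 called members with the smallest adjusted p and 2 against the majority, a set named whatever its values (such as CDK7, RB1 and MYC), the 5 largest non-coding changes each way, and the 8 genes furthest to each side of samuraciclib. Members outside this rule were named after their values were seen. Some genes are not reported here.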

Additional observations from a re-analysis of the deposited data

How the results depend on the processing

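Of the 299 genes named or listed for YKL-5-124 against DMSO, 240 kept their direction and their side of the thresholds. Against samuraciclib 49 of 63 did so, and no gene called in the comparison changed its sign. This covers the other scalings, filters and models and the fits without some libraries, wherever the gene was tested. The glmTreat test and the limit of 0.01 on the adjusted p were not applied to these single genes. Of 63 list medians, 2 moved by less than the SD between the YKL-5-124 libraries in every alternative, and 769 of 945 single values did so. Of 126 counts of list members called, 45 stayed within a fixed factor of the main count throughout, as did 1924 of 2142 single values. CCND1 (0.077) and MNAT1 (0.0080), neither called, turned positive when counts were scaled by library size alone. Against 1911 genes higher than DMSO, 1218 were counted where the mean count had to reach 50, 696 by glmTreat and 3878 with an adjusted p below 0.05 at any fold. For the 1595 lower, the counts were 762 by glmTreat, 4041 at any fold and 1052 with library size alone. With the same minimum of 50, 252 were higher and 201 lower by more than 2-fold. Against samuraciclib, the 717 higher became 416 at an adjusted p below 0.01, 1888 at any fold and 38 by glmTreat, and the 395 lower became 253 with library size alone, 2115 at any fold and 33 by glmTreat. Leaving out 1 library at a time gave 1727 to 1847 higher and 1526 to 1592 lower than DMSO, 790 to 862 and 426 to 456 more than 2-fold, and 554 to 683 and 348 to 396 against samuraciclib. DESeq2 called 1708 higher and 1530 lower. Without the 3 libraries low in 7SL RNA these were 1691 and 1566. No pairing by replicate number was seen in the counts: the deviations of same-numbered libraries correlated at 0.063, -0.031 and -0.056, and 2 of 6 libraries correlated best with their own number. These values cannot exclude that the cultures were set up in numbered pairs. The replicate block gave 1897 higher and 1597 lower, 808 and 435 more than 2-fold, and 709 and 392 against samuraciclib. Why these counts move was not tested. The 3 cultures of 1 line and 18096180 to 28018126 counts limit what can be called among genes of few counts.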
